A study of Mus musculus with 16 samples.

Results

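Glomerular RNA was examined for 7 genes of scavenging tissue macrophages: Spic, Cd5l, Marco, Vsig4, Cd163, Mrc1 and Ms4a6c. They were picked by name out of the 25791 gene symbols of the deposited expression table, with their values in all 16 libraries already known, so their levels and group differences are given as a description and carry no test of their own. RNA sequencing was done on glomeruli, the filtering units of the kidney, which had been loaded with iron by perfusion and collected with a magnet. All 16 libraries came from eNOS-/-//db/db mice, which lack endothelial nitric oxide synthase and are obese and diabetic through a leptin receptor mutation, and which ate standard chow. The RAAS-blocked group (n = 7) drank lisinopril at 20 mg/day together with losartan at 30 mg/day, started at 10 to 12 weeks of age and kept up until 26 weeks. Lisinopril inhibits angiotensin-converting enzyme and losartan blocks the angiotensin receptor, so the pair inhibits the renin-angiotensin-aldosterone system. The untreated group (n = 9) carried the same genotype and received no drug. Both mutations act in the whole animal, so neither group is a model of a change in 1 cell type, and mice without diabetes were not analysed here. The question put to the data is how these genes vary between libraries, which of them move together, and how the group difference reads with and without the library of highest Cd5l.

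Macrophages that clear dying cells, aged red blood cells and particles carry a characteristic set of surface receptors and secreted proteins, and are best known from the spleen, the liver and the lymph nodes. Spic encodes an Ets family transcription factor that mouse red pulp macrophages, the iron-recycling cells of the spleen, need to develop, and that haem induces in monocytes. Its close relative PU.1, encoded by Sfpi1, is needed by the whole myeloid lineage. The healthy glomerulus holds few macrophages, whereas macrophages gather in the diabetic kidney.

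Promoters are shown for Spic and for the pair of members whose levels ran most closely together across libraries, Cd5l and Vsig4. The sequences run 5′ to 3′, reach 250 bases before and 50 bases after the annotated start, and come from RefSeq on GRCm38.p6, a build the expression table does not name. The capitals mark GAGGAA, the core of the purine-rich box that PU.1 and its relatives bind, or TTCCTC, the same letters on the other strand. The Cd5l promoter lies at chr3:87357631-87357930 on the plus strand, that of Vsig4 at chrX:96293389-96293688 on the minus strand and that of Spic at chr10:88682974-88683273 on the minus strand.
Cd5l: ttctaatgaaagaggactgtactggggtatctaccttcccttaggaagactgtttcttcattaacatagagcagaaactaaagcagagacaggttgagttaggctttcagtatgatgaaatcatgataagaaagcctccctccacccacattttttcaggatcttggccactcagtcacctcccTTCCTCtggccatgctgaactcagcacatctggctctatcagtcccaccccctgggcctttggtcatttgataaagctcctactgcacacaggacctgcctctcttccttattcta
Vsig4: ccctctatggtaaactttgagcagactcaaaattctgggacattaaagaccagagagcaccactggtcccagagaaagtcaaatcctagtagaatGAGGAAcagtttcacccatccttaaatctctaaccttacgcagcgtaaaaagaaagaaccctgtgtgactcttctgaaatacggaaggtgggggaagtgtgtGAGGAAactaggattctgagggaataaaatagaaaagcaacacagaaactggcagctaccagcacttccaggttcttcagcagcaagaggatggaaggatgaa
Spic: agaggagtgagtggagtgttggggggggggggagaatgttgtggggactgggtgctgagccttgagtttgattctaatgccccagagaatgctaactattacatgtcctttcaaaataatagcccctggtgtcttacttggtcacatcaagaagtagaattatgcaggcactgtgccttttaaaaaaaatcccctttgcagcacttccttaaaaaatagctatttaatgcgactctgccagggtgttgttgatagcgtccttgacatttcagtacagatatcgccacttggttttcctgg
GAGGAA occurred once in the Cd5l promoter, read on the opposite strand at position -66 from the start, and at positions -155 and -53 in that of Vsig4. The Spic window held none. Of the 7 members, 4 held at least 1 copy (Marco and Mrc1 besides these), and 9289 of 32851 promoters of the same length in the reference table (28.3%) held it on either strand. The AP-1 motif TGACTCA, searched on both strands, was in 0 of the 7 windows and in 5.20% of all promoters. The matches describe the letters and were not tested for binding.

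The expression table gives FPKM, fragments scaled to transcript length and to a measure of library size, so levels are per length. FPKM gives no read counts, so the depth of each library is unknown in absolute terms. Among genes with low values, the step between libraries put the depth of 14 libraries at 1.14 to 1.72 times that of untreated replicate 0. RAAS-blocked replicate 4 showed no such step, with 23.7% of low genes on it against 73.2% to 89.2% in the others, and has no depth estimate. Podocyte RNA was present in every library: Nphs1, the podocyte protein nephrin, was at 181 to 470 FPKM in RAAS-blocked libraries and 189 to 433 FPKM in untreated libraries, while the podocalyxin gene Podxl had 0 FPKM in all 16. Summed proximal tubule markers varied widely, over 5.73 to 324 FPKM in RAAS-blocked libraries and 12.2 to 460 FPKM in untreated libraries. Ren1, the renin gene, whose RNA rises when the system is blocked, ranged over 33.5 to 1584 FPKM in the RAAS-blocked group (median 1289) and over 6.92 to 263 FPKM in the untreated group (median 46.3), with a log2 difference of 3.85 and an adjusted p of 0.22 in limma. The lowest treated value of Ren1 was in RAAS-blocked replicate 4 and the highest untreated value in untreated replicate 3. Rn18s, the 18S ribosomal RNA, was listed at 2214 to 9925 FPKM in all RAAS-blocked libraries and at 0 in all untreated ones, and the library numbers form an unbroken run for each group, so handling or processing by group cannot be told apart from the drugs.

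Spic was at 3.70, 1.78, 3.73, 5.06, 0.325, 1.77 and 0.447 FPKM in RAAS-blocked replicates 0 to 6, against 0.779, 0.194, 1.15, 24.7, 2.07, 0.895, 0.116, 2.18 and 0.593 FPKM in untreated replicates 0 to 8. Untreated replicate 3 stood above every other library, and the remaining untreated libraries lay within the range of low and middle RAAS-blocked ones except that untreated replicates 1 and 6 lay below it. RAAS-blocked replicates 0, 2 and 3 exceeded all untreated libraries other than replicate 3. Here and for the other members, fewer macrophages and less RNA per macrophage cannot be told apart in whole glomerular RNA.

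Cd5l, also called AIM, is a secreted scavenger receptor cysteine-rich protein made by tissue macrophages and carried in blood on IgM. Its levels were 1.26, 3.17, 17.3, 15.01, 0.0325, 3.23 and 0.353 FPKM in RAAS-blocked replicates 0 to 6, against 0.793, 0.0575, 1.34, 144, 4.26, 2.57, 0.0457, 0.870 and 0.156 FPKM in untreated replicates 0 to 8. A single library, untreated replicate 3, held 74.1% of the Cd5l summed over all 16 libraries and 115 times the median of the other 15. RAAS-blocked replicates 2 and 3 came next, and the other 13 libraries lay between 0.0325 and 4.26 FPKM.

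Marco, a class A scavenger receptor that binds bacteria and particles, was at 0.323, 0.0857, 0.239, 2.97, 0.868, 0.0568 and 1.997 FPKM in RAAS-blocked replicates 0 to 6, against 0, 0, 0.104, 22.1, 0.0433, 0, 0, 0.109 and 0.0602 FPKM in untreated replicates 0 to 8. Marco was near the floor of the assay in the untreated group except in replicate 3, which held 76.3% of its sum. Only 3 libraries reached 1 FPKM, so Marco was the 1 member that missed the filter of at least 1 FPKM in at least 7 libraries and was left out of the fit over all genes. Of the RAAS-blocked libraries, 5 exceeded every untreated one other than replicate 3.

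Vsig4, the complement receptor CRIg, which lets macrophages take up particles coated with C3 fragments, was at 0.126, 3.96, 12.6, 6.29, 0.0947, 2.40 and 0.0324 FPKM in RAAS-blocked replicates 0 to 6, against 0.291, 0, 0.930, 28.8, 3.19, 1.25, 0, 0.966 and 0.0287 FPKM in untreated replicates 0 to 8. Cd163, the receptor for haemoglobin bound to haptoglobin, was at 0.228, 3.93, 5.23, 2.69, 1.28, 2.12 and 0.118 FPKM in RAAS-blocked replicates 0 to 6, against 1.16, 0.191, 0.529, 17.7, 2.84, 1.21, 0.223, 0.358 and 0.476 FPKM in untreated replicates 0 to 8. Both were highest in untreated replicate 3 and next highest in RAAS-blocked replicate 2. RAAS-blocked replicates 0 and 6, which were among the highest for Ms4a6c below, were the lowest of their group for Cd163.

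Mrc1, the mannose receptor CD206, which also marks some endothelial cells, was at 9.75, 18.1, 18.6, 12.2, 9.403, 11.4 and 2.06 FPKM in RAAS-blocked replicates 0 to 6, against 15.4, 4.75, 9.89, 29.8, 7.04, 11.9, 4.53, 6.28 and 3.85 FPKM in untreated replicates 0 to 8. Among the members Mrc1 stood out least in untreated replicate 3, at 3.06 times the median of the other 15 libraries. That ratio was 15.3 for Cd163, 21.4 for Spic, 30.9 for Vsig4 and 258 for Marco. Within those 15 libraries the highest Mrc1 was 9.03 times the lowest, against 8.49 times for Ms4a6c. Ms4a6c, of a family of membrane-spanning proteins, was at 21.4, 8.08, 15.3, 18.3, 6.93, 4.37 and 21.3 FPKM in RAAS-blocked replicates 0 to 6, against 7.67, 3.53, 5.61, 42.5, 6.69, 7.57, 3.01, 10.1 and 2.52 FPKM in untreated replicates 0 to 8. Ms4a6c was 5.62 times the median of the others in untreated replicate 3, and 4 RAAS-blocked libraries exceeded all remaining untreated ones. That count was 2 for Cd5l, Cd163 and Mrc1 and 3 for Vsig4. Untreated replicate 3 itself exceeded every RAAS-blocked library for all 7 members, and no such count was made over all genes. Its near relatives Ms4a6b and Ms4a6d share sequence with it, and no source used here says how shared reads were counted, which leaves the split between these 3 genes uncertain.

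**Figure D1:**
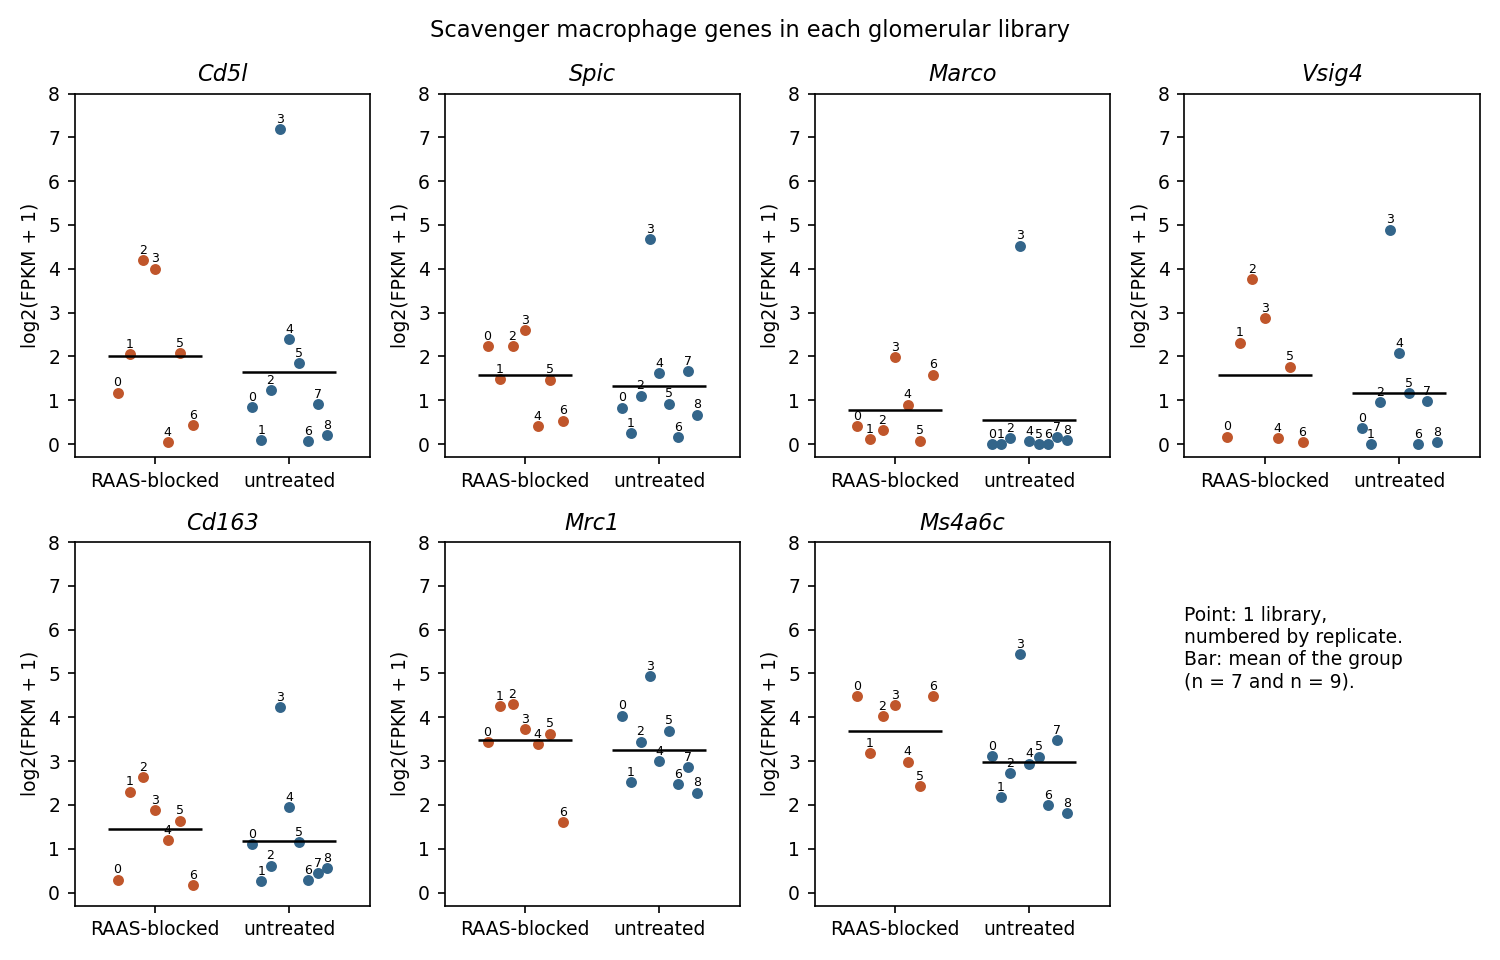
Level of each member on the log2(FPKM + 1) scale in each library, RAAS-blocked left (n = 7) and untreated right (n = 9), with replicate numbers and a bar at the group mean. Untreated replicate 3 is the highest point for all 7 members, from 17.7 FPKM for Cd163 to 144 FPKM for Cd5l.

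With all 16 libraries, mean FPKM of 5 of the 7 members was lower in the RAAS-blocked group, and without untreated replicate 3 it was higher for all 7. Cd5l averaged 5.77 ± 7.24 FPKM in RAAS-blocked libraries (SD, n = 7) and 17.2 ± 47.7 FPKM in untreated libraries (n = 9), which became 1.26 ± 1.47 FPKM without untreated replicate 3 (n = 8). The ratio of Cd5l means, RAAS-blocked over untreated, was thereby 0.336 with that library and 4.57 without it. Spic averaged 2.40 ± 1.8 FPKM in the RAAS-blocked group and 3.63 ± 7.93 FPKM in the untreated group, or 0.997 ± 0.776 FPKM there without that library. Marco averaged 0.935 ± 1.13 FPKM in the RAAS-blocked group and 2.49 ± 7.35 FPKM in the untreated group, or 0.0396 ± 0.0473 FPKM without that library. The ratio was 0.925 for Vsig4 and 0.812 for Cd163 with all libraries, and 4.37 and 2.55 without untreated replicate 3. For Vsig4 it also passed 1 without RAAS-blocked replicate 0, 4 or 6, at 1.07 to 1.08. Mrc1 (ratio 1.12) and Ms4a6c (ratio 1.38) were higher in the RAAS-blocked mean with all libraries too. Medians were higher in the RAAS-blocked group for all 7 members with every library in, for instance 3.17 against 0.870 FPKM for Cd5l, 1.78 against 0.895 FPKM for Spic and 15.3 against 6.69 FPKM for Ms4a6c.

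On the log2(FPKM + 1) scale, where 1 high library weighs less and changes of low genes are understated, all 7 differences were above 0 both ways, and 6 of the 7 were smaller than their standard errors with all libraries. The difference, RAAS-blocked minus untreated, was 0.36 ± 0.96 for Cd5l (SE), 0.24 ± 0.56 for Spic and 0.22 ± 0.57 for Marco. It was 0.42 ± 0.77 for Vsig4, 0.27 ± 0.55 for Cd163, 0.22 ± 0.45 for Mrc1 and 0.72 ± 0.48 for Ms4a6c. Without untreated replicate 3 it was 1.05 ± 0.68 for Cd5l, 0.66 ± 0.38 for Spic, 0.71 ± 0.29 for Marco, 0.88 ± 0.62 for Vsig4, 0.65 ± 0.41 for Cd163, 0.43 ± 0.41 for Mrc1 and 1.02 ± 0.38 for Ms4a6c. The size depended on the scale: with a pseudocount of 0.1 in place of 1 and all libraries in, the difference was 0.72 for Cd5l, 0.56 for Spic, 1.34 for Marco, 0.75 for Vsig4, 0.48 for Cd163, 0.23 for Mrc1 and 0.81 for Ms4a6c. With array weights, which give less weight to libraries that deviate, it was 1.11 for Cd5l, 0.65 for Spic, 1.07 for Vsig4, 0.69 for Cd163, 0.46 for Mrc1 and 0.70 for Ms4a6c. The median member difference was 0.27 with all libraries and 0.71 without untreated replicate 3, beside -0.02 and -0.01 over the 13286 genes tested.

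**Figure D2:**
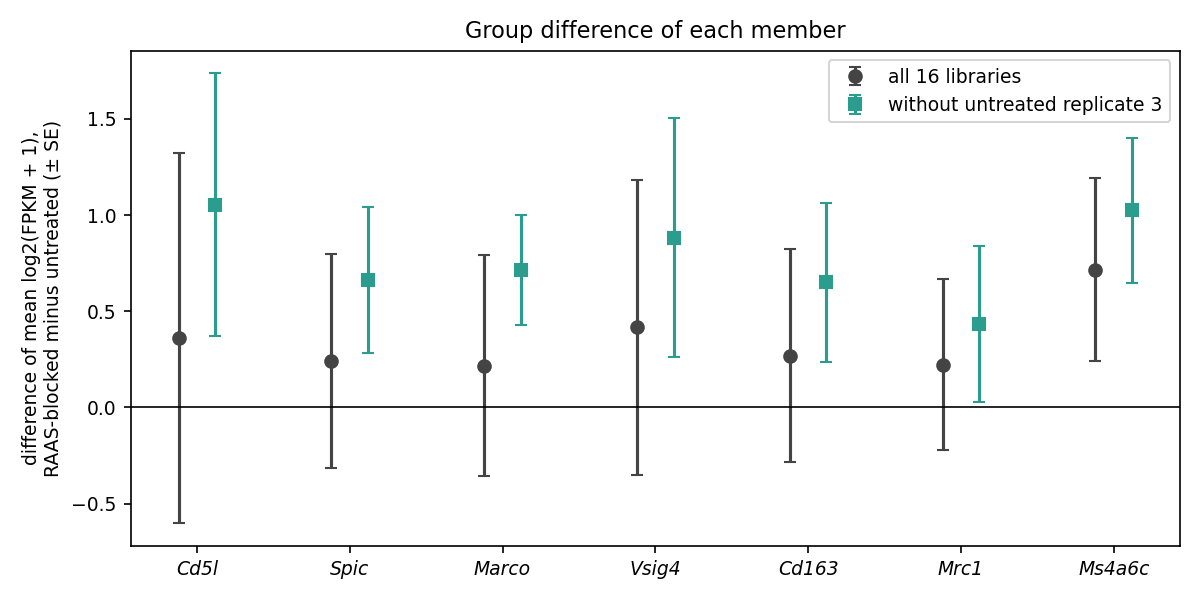
Difference of group means on the log2(FPKM + 1) scale, RAAS-blocked minus untreated, with its standard error, for all 16 libraries (circles) and without untreated replicate 3 (squares). Every point is above 0, and Cd5l moves most, from 0.36 to 1.05, when that library is left out. That library was picked by its Cd5l and is the highest for every member, so leaving it out must raise every difference.

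In limma on all genes that passed the filter, none of the 6 members that passed was called at an adjusted p of 0.05 (Benjamini-Hochberg), with adjusted p of 0.867 to 0.961. This stands beside a background of 0.00753% of genes called higher (1 gene, Rn18s) and 0.00753% called lower (1 gene, Mgat1) among 13286, where 814 genes had an unadjusted p under 0.05. Without untreated replicate 3 again 0 of 6 were called, at adjusted p of 0.496 to 0.815, with 0.00753% of genes called higher and 0% called lower. Because that library was picked by its Cd5l value, the 15-library values are a description. The labels do not say library by library that each is a separate mouse, so the p-values cover only library-to-library spread, which may be technical.

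Leaving out RAAS-blocked replicate 4, which has no depth estimate and the lowest Ren1 of its group, gave log2 differences of 0.69 for Cd5l, 0.44 for Spic, 0.20 for Marco, 0.66 for Vsig4, 0.31 for Cd163, 0.24 for Mrc1 and 0.83 for Ms4a6c. Without RAAS-blocked replicate 2, next highest for Cd5l, the difference was -0.0048 for Cd5l, 0.13 for Spic, 0.29 for Marco, 0.052 for Vsig4, 0.070 for Cd163, 0.086 for Mrc1 and 0.66 for Ms4a6c. Without RAAS-blocked replicate 3 it was 0.027 for Cd5l, 0.070 for Spic, 0.014 for Marco, 0.20 for Vsig4, 0.20 for Cd163, 0.18 for Mrc1 and 0.62 for Ms4a6c.

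Cd5l, Vsig4 and Cd163 ran closely together across libraries whether or not untreated replicate 3 was in. Pearson r on log2(FPKM + 1) was 0.97 for Cd5l with Vsig4 over 16 libraries and 0.96 over 15, and 0.95 within the RAAS-blocked group and 0.99 within the untreated group. Vsig4 with Cd163 gave 0.94 over 16 and 0.90 over 15. Cd5l with Cd163 gave 0.92 over 16, 0.82 over 15 and 0.76 within the RAAS-blocked group. Spic was closest to Cd5l, at 0.93 over 16 and 0.83 over 15, and further from Cd163, at 0.79 over 16, 0.56 over 15 and 0.41 within the RAAS-blocked group. Mrc1 was closest to Cd163, at 0.81 over 16 and 0.74 over 15, and over 15 libraries was at 0.65 with Vsig4 and 0.64 with Cd5l. By Spearman rho over 15 libraries, Cd5l was at 0.93 with Vsig4, 0.85 with Spic and 0.74 with Cd163. These are descriptions over libraries that differ in depth and macrophage content, and no p is attached.

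Over both groups Marco was closest to Ms4a6c, with r of 0.76 over 16 libraries and 0.64 over 15, and lost most of its likeness to the other members without untreated replicate 3. Within the RAAS-blocked group Marco was at 0.54 with Ms4a6c and -0.042 with Spic. Within the untreated group without replicate 3, where Marco was near the floor, it was at 0.27 with Ms4a6c and 0.66 with Spic. Marco with Cd5l was at 0.26 over 15 libraries, against 0.73 over 16. Ms4a6c was also close to Spic, at 0.77 over 16 libraries and 0.63 over 15. For Marco with Vsig4, Cd163 and Mrc1, r over 15 libraries was 0.14, 0.049 and -0.16, against 0.60, 0.63 and 0.36 over 16. Ms4a6c with Cd163 gave 0.19 over 15 and 0.51 over 16. Of the 21 pairs, 19 were over 0.5 with all libraries and 12 without that one. Within the RAAS-blocked group, Marco with Mrc1 was at -0.54 and Ms4a6c with Cd163 at -0.38.

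**Figure D3:**
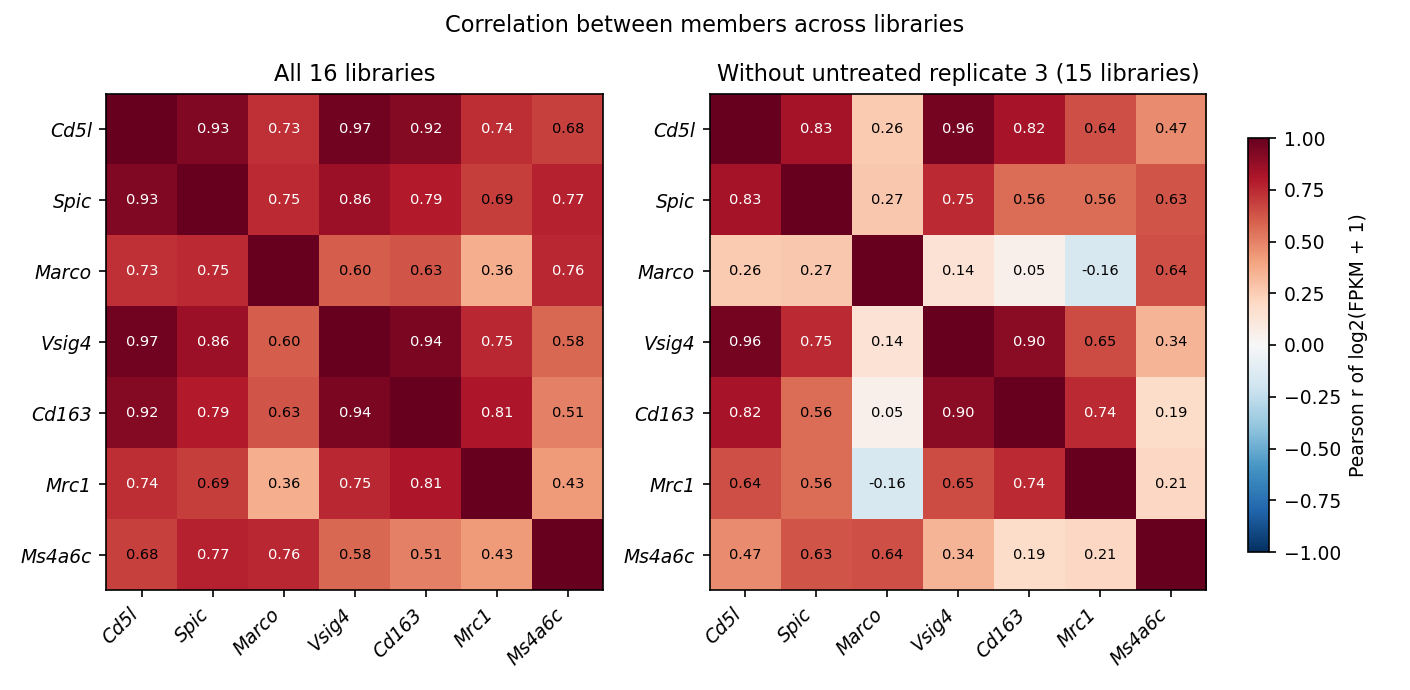
Pearson r of log2(FPKM + 1) for each pair of members over all 16 libraries (left) and without untreated replicate 3 (right), red above 0 and blue below. In the right panel Cd5l, Vsig4 and Cd163 stay at 0.82 or above with each other, while the Marco row drops to between -0.16 and 0.64.

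RAAS-blocked replicate 6 was low for some members and high for others. It had the lowest Mrc1 of all 16 libraries (2.06 FPKM) and low Cd5l and Vsig4, together with 21.3 FPKM of Ms4a6c and the third highest Marco (1.997 FPKM). In that library 118 genes lay over 1 log2 unit above the next library, more than the 69 in untreated replicate 3 and the 0 to 14 in each of the rest. Among them Il18bp, which encodes an inhibitor of interleukin-18, was at 109 FPKM there, against 4.87 to 12.2 FPKM in the rest of its group.

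**Figure D4:**
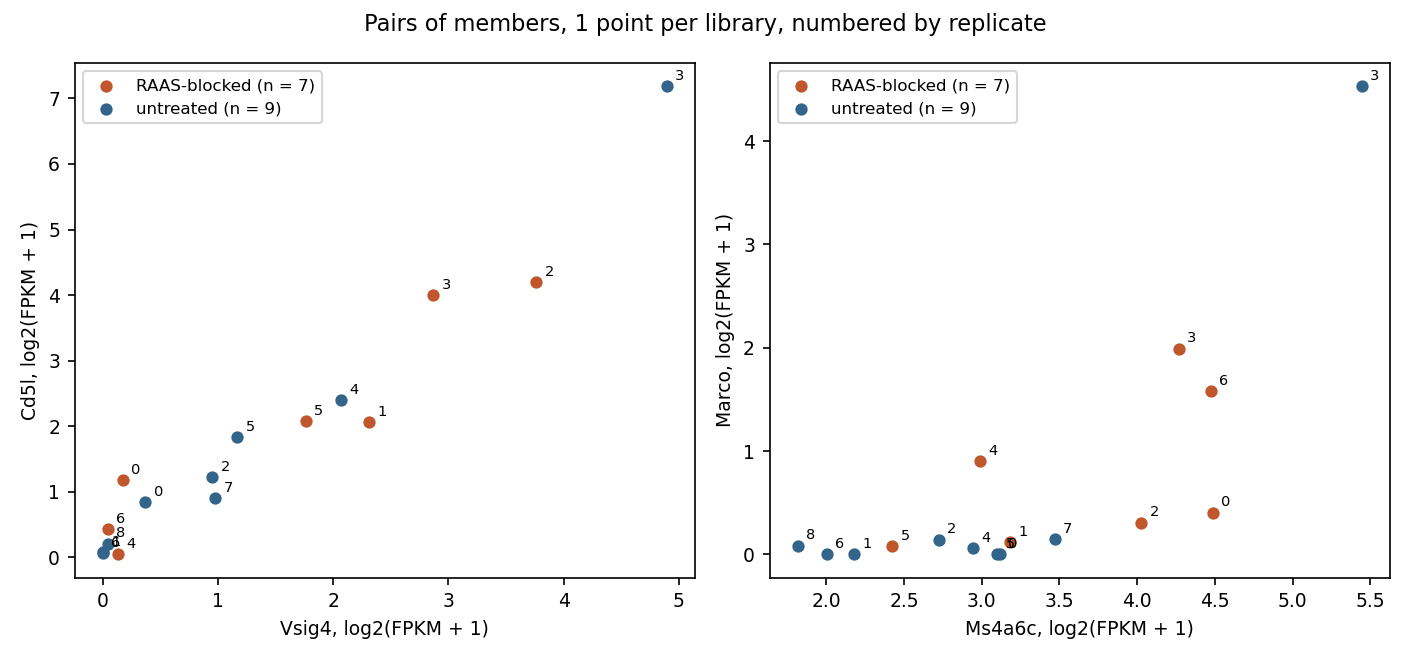
Cd5l against Vsig4 (left) and Marco against Ms4a6c (right) in each library on the log2(FPKM + 1) scale, numbered by replicate. The left panel follows a line through both groups (r = 0.97), while in the right panel Marco leaves the floor in untreated replicate 3 and in RAAS-blocked replicates 3, 6 and 4.

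The genes most like each member by Spearman rho over 16 libraries were, for Cd5l, Acp5 (0.93), an acid phosphatase of macrophages and osteoclasts, then Clec4b1 (0.92) and Nt5dc2 (0.91). For Spic they were Cx3cr1, the fractalkine receptor (0.97), Acp5 (0.97), Rgs10 (0.96), Adamdec1 (0.95) and C1qb (0.95). Vsig4 and Cd163 shared Hpgd, which inactivates prostaglandins, at 0.91 each. Next for Vsig4 came Cd79b (0.91), a gene of the B cell receptor. Mrc1 was most like Igfbp4, an insulin-like growth factor binding protein (0.92), and Ms4a6c most like AI607873, Clec4a1 and Igsf6 (all 0.97). Without untreated replicate 3, Mrc1 was most like Chd3 (0.95), with Igfbp4 next (0.92). All of these genes were drawn from 11750 candidates.

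The wider macrophage program was also high in untreated replicate 3. Of 19 general macrophage markers, which leave out the members, 16 were highest there, at a median of 7.71 times the other 15 libraries; over all genes tested 8.96% were highest there and the median was 1.02 times. C1qb, a chain of complement C1q, was at 552 FPKM there and at most 179 FPKM elsewhere, and Lyz2, lysozyme, at 785 against at most 530 FPKM. Csf1r, the receptor for the growth factor of macrophages, was at 150 FPKM there and at most 51.3 FPKM elsewhere. Per unit of Csf1r, Cd5l was 0.963 in that library against at most 0.420 in the rest, and Spic (0.165 against 0.113) and Marco (0.147 against 0.0954) were also highest there. Per unit of Csf1r, Vsig4 ranked 3rd, Cd163 6th, Ms4a6c 14th and Mrc1 15th of 16. The mean log2 level of the macrophage markers was 3.95 to 5.76 in RAAS-blocked libraries and 3.37 to 6.93 in untreated libraries, where 6.93 was replicate 3 and 5.05 the next. Spic and Ms4a6c tracked that level (r = 0.92 and 0.93 over 16 libraries, 0.86 and 0.90 over 15), and Cd163 and Mrc1 least (0.34 and 0.35 over 15). With the macrophage level in the model the group difference was -0.34 ± 0.56 for Cd5l (SE) and -0.22 ± 0.23 for Spic. It was -0.058 ± 0.53 for Vsig4, -0.041 ± 0.44 for Cd163, 0.018 ± 0.37 for Mrc1 and 0.32 ± 0.17 for Ms4a6c. Marco, left out of that fit by the filter, was at -0.18 with no SE. Of the members with an SE only Ms4a6c exceeded it, and none was called.

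Genes furthest above the next library in untreated replicate 3 included Fcna, a ficolin of the lectin complement pathway, at 119 FPKM against at most 10.7 FPKM elsewhere. Ly9, a SLAM family receptor of immune cells, was at 14.7 FPKM against 2.82, and Slc40a1, the iron exporter ferroportin, at 119 FPKM against 30.2. Igf1 was at 20.7 FPKM against 4.89. C6, a complement component also counted among liver macrophage genes, was at 8.78 FPKM there and at most 2.50 elsewhere.

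Lists of other macrophages and cells gave mixed values in that library. Of the 8 Kupffer cell markers, 4 were highest in untreated replicate 3: Fcna, C6, Clec1b at 18.7 FPKM against at most 9.43 elsewhere, and Folr2 at 2.10 FPKM against at most 0.794. Clec4f, which marks liver Kupffer cells, was at 0 FPKM there and Timd4 at 0.142 FPKM, and neither passed 0.390 FPKM in any library. The list summed to 12.0 to 112 FPKM in the RAAS-blocked group and to 8.59 to 168 FPKM in the untreated group, where 168 was replicate 3 and 20.0 the next. The RAAS-blocked maximum was in replicate 6 and lay almost wholly in Il18bp (109 FPKM), with Clec1b at 1.99 and Fcna at 0.641 FPKM there. In untreated replicate 3, albumin (Alb) was at 0.152 FPKM, and the 10 hepatocyte markers summed to 2.92 FPKM, 14th of 16 libraries. Summed hepatocyte markers were 2.50 to 9.30 FPKM in the RAAS-blocked group and 1.26 to 30.8 FPKM in the untreated group. The summed B and plasma cell markers (27.1 FPKM) and T and NK cell markers (13.5 FPKM) were the highest of the 16 in untreated replicate 3. Of the 8 B and plasma cell markers 3 were highest in that library, among them Cd79b, a chain of the B cell receptor, at 7.10 FPKM against at most 3.28 elsewhere, and Igj, the joining chain of antibodies, at 8.30 FPKM against at most 5.01. The B cell transcription factor gene Pax5 was at 0.0454 FPKM there. B and plasma cell sums were 9.68 to 24.6 FPKM in RAAS-blocked libraries and 10.1 to 27.1 FPKM in untreated libraries, and T and NK sums 2.76 to 8.94 FPKM and 2.96 to 13.5 FPKM in the same groups. Erythroid markers ranked 5th in untreated replicate 3 (168 FPKM). Across groups erythroid sums were 16.5 to 307 FPKM in RAAS-blocked libraries and 44.2 to 373 FPKM in untreated libraries, with all 5 tested members lower in the RAAS-blocked mean and none called. Neutrophil markers were highest in RAAS-blocked replicate 0 and summed to 67.0 to 2368 FPKM in the RAAS-blocked group and 28.6 to 865 FPKM in the untreated group. Of the glomerular and tubular lists, podocyte markers were 1 higher and 6 lower of 7 tested in the RAAS-blocked mean, endothelial markers 0 higher and 7 lower of 7, mesangial and renin cell markers 7 higher and 0 lower of 7, and proximal tubule markers 2 higher and 6 lower of 8. Dendritic cell markers were 1 higher and 2 lower of 3, and in all of these lists 0 genes were called in limma. The part of these cells in the members' values was not tested.

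**Figure D5:**
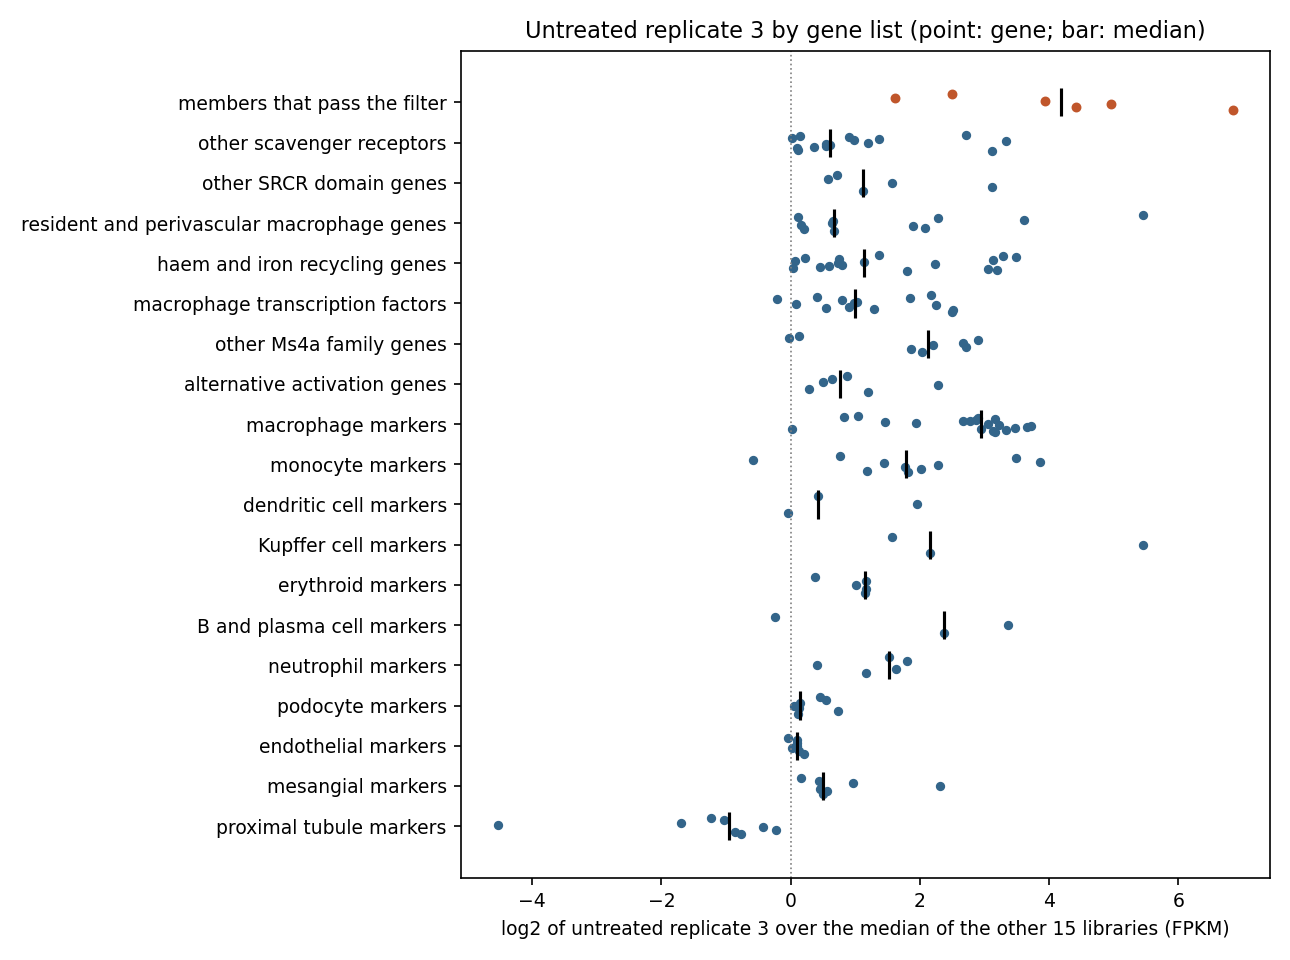
Level in untreated replicate 3 over the median of the other 15 libraries, on a log2 scale, for each tested gene of the lists with at least 3 tested genes (points), with the median as a bar. The 6 tested members are drawn in the top row. The median of the general macrophage markers lies to the right of the medians of the podocyte, endothelial and proximal tubule markers, while Mertk among them was at 1.01 times.

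In the other gene lists of the macrophage program 0 genes were called in limma, and at an unadjusted p under 0.05 there were 2 of the other scavenger receptors, 1 monocyte marker and none of the rest. Among haem and iron recycling genes, 13 of 17 tested were higher and 4 lower in the RAAS-blocked mean (median log2 difference 0.14), and 15 higher and 2 lower without untreated replicate 3. Of the 17, 12 were highest in that library, so leaving it out must raise their differences. Fth1, ferritin heavy chain, was at 937 to 1826 FPKM in RAAS-blocked libraries and 935 to 2218 FPKM in untreated libraries, and Slc48a1, a haem transporter, at 114 to 217 and 126 to 195 FPKM in those groups. Ftl1, ferritin light chain, was at 463 to 820 FPKM in RAAS-blocked libraries and 554 to 1140 FPKM in untreated ones, with the top value in replicate 3. The transcription factors of macrophages split 9 higher and 5 lower of 14. Nr1h3, the liver X receptor alpha that responds to oxysterols, had medians of 6.15 FPKM in the RAAS-blocked group and 3.36 FPKM in the untreated group, and 20.6 FPKM in untreated replicate 3.

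Other Ms4a family genes were 7 higher and 1 lower of 8, and 8 of 8 higher without untreated replicate 3. Ms4a6d had medians of 7.67 FPKM in the RAAS-blocked group and 3.07 FPKM in the untreated group, and Ms4a4a of 5.31 and 2.70 FPKM, while Tmem176b, a relative in the same family, differed little (257 and 253 FPKM). Other scavenger receptors were 9 higher and 6 lower of 15, with the apoptotic cell receptors Mertk at medians of 162 and 164 FPKM and Axl at 113 and 91.7 FPKM in the RAAS-blocked and untreated groups. Other genes with scavenger receptor cysteine-rich domains were 3 higher and 2 lower of 5, among them Msr1 with medians of 6.45 and 2.97 FPKM in those groups. Resident and perivascular macrophage genes were 5 higher and 6 lower of 11 (8 and 3 without untreated replicate 3), and alternative activation genes 5 higher and 1 lower of 6. Monocyte markers were 8 higher and 2 lower of 10, with Spn, a leukocyte surface sialoprotein, at medians of 14.3 FPKM in the RAAS-blocked group and 5.59 FPKM in the untreated group. General macrophage markers were 18 higher and 1 lower of 19 (Mertk lower), with a median log2 difference of 0.41, and 0.73 without untreated replicate 3. Over all genes tested 44.7% were higher in the RAAS-blocked mean, and 45.6% without untreated replicate 3. That library held the highest value of 16 of the 19 macrophage markers and of 6 of the 8 other Ms4a genes tested. Leaving it out must raise the differences of those genes, so the counts without it are a description. Some genes sit in more than 1 list.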

How the data were processed

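The authors deposited 1 table of FPKM per gene symbol for 16 libraries, per the file headers; the submitters' processing notes name Cuffdiff 2.2.1, Cufflinks, TopHat2 2.0.8, CASAVA 1.8.2 and FastQC, in no stated order, while build, annotation and strand setting are not given in the sources used. Libraries were prepared from total glomerular RNA with a TruSeq mRNA kit, per the labels' protocols. No counts were used, so a count test was not run. Of 25791 symbols, 4177 were listed at 0 in every library. Libraries correlated at 0.89 to 0.98, and 0 pairs were identical. For the group difference, FPKM was taken as log2(FPKM + 1), the 13286 genes reaching 1 FPKM in 7 or more libraries were fitted with limma 3.58.1 in R 4.3.3 (group as the only term, trended and robust variance), and p-values were adjusted by Benjamini-Hochberg at 0.05. The fit was tested on simulated data. Values, correlations and ratios were computed with Python 3.11.15, pandas 2.3.3 and SciPy 1.17.1. The members and the 20 gene lists were chosen with earlier results of these data known. The text names the 7 members; of each list genes out of the 4 highest by mean FPKM and the 2 lowest by p; of the most alike genes up to 5 per member; and of the 12 genes furthest above the next library in untreated replicate 3. Other genes (Alb, Clec4f, Timd4, Pax5, Csf1r, Podxl, Ms4a6b, Folr2, Rn18s, Mgat1) were named after their values were seen, as defining markers, relatives, the divisor or the called genes. The ratio to Csf1r and the ratio of means with each library left out were added after seeing the data. Other alternatives were a pseudocount of 0.1, no filter, upper quartile scaling, array weights, the exact Wilcoxon test, the replicate block, the macrophage level as covariate and leaving out each library. Some items are not reported here.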

Additional observations from a re-analysis of the deposited data

Results flagged for a closer look

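For 38 genes named in the text, the gap between the highest or lowest library of a group and its nearest neighbour was divided by the range of that group on the log2(FPKM + 1) scale and set against Dixon's 95% limit (0.568 for 7 libraries, 0.493 for 9), which chance passes in about 1 in 20 groups. The number past the limit is not a test here: untreated replicate 3 was singled out by its Cd5l, several genes were named for their gap in it, and the others move with them, so the gaps are listed as a description. In the untreated group, replicate 3 stood high with a gap share of 0.673 for Cd5l, 0.666 for Spic, 0.967 for Marco, 0.577 for Vsig4, 0.575 for Cd163 and 0.544 for Ms4a6c. The same library stood high among the other named genes with 0.626 for Csf1r, 0.497 for C1qb, 0.529 for Ftl1, 0.597 for Slc40a1, 0.584 for Ms4a6d, 0.640 for Nr1h3, 0.583 for Msr1, 0.614 for Fcna, 0.780 for C6, 0.696 for Ly9, 0.726 for Igf1, 0.647 for Cx3cr1, 0.534 for Igsf6, 0.495 for Spn, 0.610 for Folr2 and 0.541 for Cd79b. In the RAAS-blocked group, replicate 6 stood apart with 0.659 for Mrc1, 0.593 for Slc48a1 and 0.724 for Il18bp, of which Mrc1 was low and the others high. Replicate 4 of that group stood low with 0.609 for Ftl1, 0.667 for Ren1 and 0.640 for Spn.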

How the results depend on the processing

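No member was called under any of the alternatives run, and the count of genes called over all genes stayed small: 1 higher and 1 lower as reported, 2 higher without the filter, 0 lower with upper quartile scaling or the macrophage level as covariate, 5 higher and 6 lower with array weights, and 0 higher and 0 lower with the exact Wilcoxon test (757 genes at an unadjusted p under 0.05). Leaving out each library gave 1 to 3 higher and 0 to 3 lower. With replicate numbers as a block, 0 genes were lower, and the Cd5l difference was 0.052 and that of Ms4a6c 0.62. Same-numbered libraries correlated at -0.28 to 0.43 (4 of 7 pairs over 0.1, 1 library closest to its own number). Whether same-numbered libraries share handling was not tested. With the macrophage level as covariate the difference was -0.34 for Cd5l, -0.22 for Spic, -0.18 for Marco, -0.058 for Vsig4 and -0.041 for Cd163. Each of these but Marco, which had no SE, was smaller than its SE, and the cause was not tested. Leaving out each library, log2 differences ranged over -0.0048 to 1.05 for Cd5l, 0.070 to 0.66 for Spic, 0.014 to 0.71 for Marco, 0.052 to 0.88 for Vsig4, 0.070 to 0.65 for Cd163, 0.086 to 0.53 for Mrc1 and 0.57 to 1.02 for Ms4a6c, and ratios of mean FPKM over 0.224 to 4.57 for Cd5l, 0.54 to 2.41 for Spic, 0.239 to 23.6 for Marco, 0.547 to 4.37 for Vsig4 and 0.629 to 2.55 for Cd163. The Vsig4 ratio also passed 1 without RAAS-blocked replicate 0 (1.07), 4 (1.08) or 6 (1.08). Divided by Csf1r, untreated replicate 3 was 0.351 times the median of the others for Mrc1 and 0.678 times for Ms4a6c. Within the RAAS-blocked group r was -0.042 for Spic with Marco, -0.14 for Marco with Vsig4, -0.32 for Marco with Cd163, -0.54 for Marco with Mrc1, -0.059 for Vsig4 with Ms4a6c, -0.38 for Cd163 with Ms4a6c and -0.36 for Mrc1 with Ms4a6c; without untreated replicate 3, Marco with Mrc1 was -0.16. FPKM without counts leaves the depth behind low values, such as those of Marco, unknown.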
